A study of Mus musculus with 6 samples.

Results

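The insulin-like growth factor (IGF) system was examined in mouse 3T3 fibroblasts after suppression of the long noncoding RNA Ntep. The genes were chosen by name and comprised the ligands Igf1 and Igf2, the receptors Igf1r and Igf2r, and the binding protein genes Igfbp2 to Igfbp7. Of 55681 non-control probes on the array, 15 carried one of these 10 gene names, and 7 genes with 11 probes were bright enough to be tested among 15242 genes with 30990 probes. 3T3 is an established line of embryonic mouse fibroblasts, and no other genotype or line entered this series. Cells received either a GapmeR directed against Ntep (GapmeR Ntep) or a control oligonucleotide (GapmeR control), each at 50 nM for 48 h. A GapmeR is an antisense oligonucleotide that recruits RNase H to cut its target RNA. Each group comprised 3 one-colour Agilent arrays from 3 experiments, and, by the scanner file headers, all 6 arrays shared 1 slide.

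IGF1 and IGF2 are secreted peptides that bind the tyrosine kinase receptor IGF1R, which signals through insulin receptor substrates to the PI3K, AKT and mTOR cascade and to the RAS and ERK cascade. IGF2R binds IGF2 without a kinase of its own and carries it to lysosomes. The binding proteins hold the ligands in the extracellular fluid, and proteases that cut them set ligand free. In fibroblasts, IGF1 is a classical progression and survival factor for serum-deprived cells, and FoxO transcription factors are held outside the nucleus when AKT is active.

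The 5 probes for Igf1 are shown first, by a stretch of 30 bases of each 60-base probe, 5′ to 3′, because Igf1 was the member called and its probes did not all move together. Coordinates are those in the array files (mouse build mm9, plus strand) and span the whole probe. Capitals mark bases shared by the overlapping pair, of which 40 are shared in all. Exon, intron and untranslated region labels were not given in the sources used here.
Igf1 A_55_P2085979, transcript NM_184052, chr10:87378456-87378515: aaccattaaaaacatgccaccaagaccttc
Igf1 A_55_P2085984, transcript NM_010512, chr10:87393561-87393620: aacaataataAGTCCAATAACATTACAAAG
Igf1 A_55_P2031631, transcript NM_010512, chr10:87393581-87393640: AGTCCAATAACATTACAAAGATGGGCATTT
Igf1 A_55_P2031636, transcript NM_010512, chr10:87395924-87395983: agaaatgtaaatggaataagaggtcagctg
Igf1 A_55_P2085974, transcript NM_010512, chr10:87399581-87399640: ctcctgattgtatttgaagtggttattcaa
The first of these probes lay 15105 bases upstream of the next one, whereas the other 4 fell within 6080 bases.

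The RNA targeted by the GapmeR was checked first. The probe for Ntep (listed as A630089N07Rik, chr16:98283712-98283771, mm9) gave normalized signals of 472, 91.5 and 226 with GapmeR Ntep in experiments 1, 2 and 3, compared with 271, 272 and 361 with GapmeR control. The signal was lower in experiments 2 and 3 and higher in experiment 1, so the groups overlapped (log2 difference -0.48, SE 0.58, limma adjusted p = 0.632; exact two-sided permutation p = 0.7, with 0.1 the smallest possible). Experiment 1 therefore went against its label at this probe, and every direction below compares arrays as labelled. Between 43.74% and 53.33% of probes were well above background per array and no probe was saturated. The array labelled GapmeR Ntep of experiment 2 correlated with the controls (mean r = 0.9834) as closely as with its own group (mean r = 0.9825).

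Igf1 was the one member called: by its brightest probe, its signal was 4.1-fold lower on the arrays labelled GapmeR Ntep. None of the other 6 tested members passed the adjusted threshold. Across all tested genes, 6.01% were called, 3.68% lower and 2.33% higher. All 7 tested members had a lower mean by their brightest probe, although for Igfbp4 the difference was close to 0 and turned positive when arrays were scaled to their 75th percentile. The median log2 difference of the 7 genes was -0.56, compared with 0.0029 over all tested genes, of which 49.8% were lower. The groups did not overlap for 3 members, Igf1, Igf1r and Igfbp6, each lower on the labelled Ntep arrays, while 36.2% of all tested genes had non-overlapping groups and 18.4% were lower in that way. By the fold and p criterion of the original methods (at least 2-fold, unadjusted p under 0.01, here with limma's p), Igf1 again was the single member called, against 9.12% of all genes (5.93% lower).

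**Figure D1:**
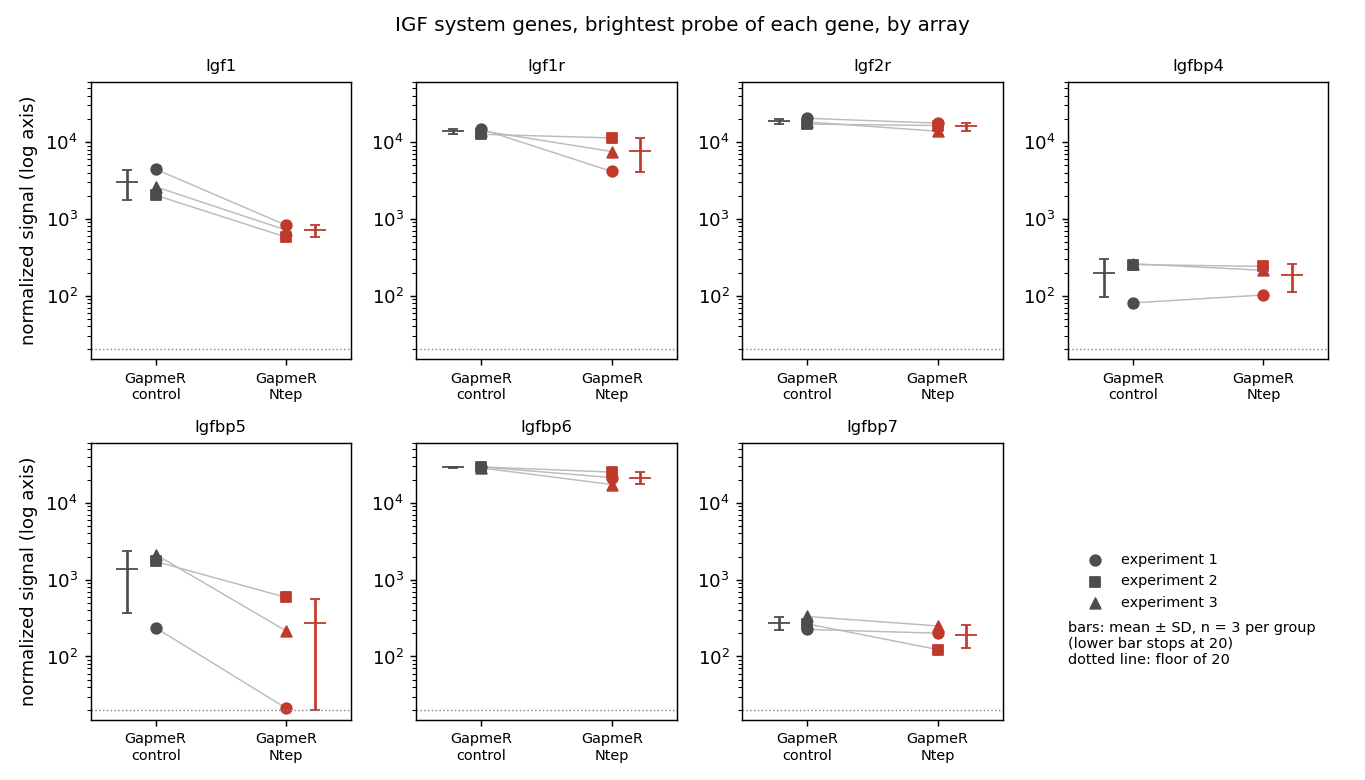
Normalized signal (log axis) of the brightest probe of each tested IGF gene on the 6 arrays, with lines joining the arrays of 1 experiment and bars showing mean ± SD (n = 3 per group). Igf1, Igf1r and Igfbp6 show no overlap between groups, whereas Igf2r, Igfbp4, Igfbp5 and Igfbp7 do; Igfbp5 spans the widest range, from 21.2 to 2124.

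Igf1 encodes the ligand itself. Its brightest probe, A_55_P2031631, gave signals of 829, 580 and 717 on the arrays labelled GapmeR Ntep and of 4436, 2035 and 2622 on the control arrays. The highest labelled Ntep array was thus well below the lowest control array, and the fall was seen in every experiment, with log2 differences of -2.42, -1.81 and -1.87. The mean signal was 709 ± 125 (SD, n = 3) against 3031 ± 1252 (SD, n = 3), a log2 difference of -2.03 (SE 0.33, 95% CI -2.83 to -1.23, limma adjusted p = 0.0335). The probe overlapping it, A_55_P2085984, showed 429, 332 and 399 against 2451, 1174 and 1570 (log2 difference -2.10, SE 0.30, adjusted p = 0.0287). As these probes share most of their bases, they are not independent measurements. In bulk RNA, fewer cells that express a gene and less of its RNA per cell cannot be told apart.

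The most downstream probe, A_55_P2085974, showed signals of 78.4, 113 and 41.4 on the arrays labelled GapmeR Ntep and of 777, 533 and 426 on the control arrays (log2 difference -2.97, SE 0.43, adjusted p = 0.0287). It was well above background on all 3 control arrays but on 1 labelled Ntep array. A_55_P2031636, located between these positions, was dim throughout, with a mean of 46.9 ± 16.6 against 86.5 ± 19 (SD, n = 3 each; log2 difference -0.93, SE 0.34, adjusted p = 0.162). Thus 3 of the 5 Igf1 probes were called lower, the overlapping pair among them, while 3.21% of all tested probes were called lower. These shares are a description only, because Igf1 was singled out by the call of its brightest probe.

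The upstream probe annotated to NM_184052, A_55_P2085979, behaved differently. It gave 1456, 1093 and 952 on the arrays labelled GapmeR Ntep and 1290, 735 and 851 on the control arrays, so the groups overlapped and each experiment was slightly higher with the label GapmeR Ntep (0.17, 0.57 and 0.16 on the log2 scale). The log2 difference was 0.30 (SE 0.29, 95% CI -0.39 to 1.00, limma adjusted p = 0.536), an interval that lay above those of the 3 called probes. It was well above background on all 6 arrays.

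Whether the probes of 1 gene differed in their change was tested with limma's diffSplice over the 4169 genes with at least 2 tested probes, a test added after these values had been seen. Igf1 was among 136 genes called (3.26%), with an adjusted p of 0.00697. The change at the upstream probe exceeded the average change at the other Igf1 probes by 2.31 on the log2 scale (adjusted p = 0.00646). The most downstream probe, A_55_P2085974, was also called, in the other direction (-1.78, adjusted p = 0.0242). Its average of the other probes took in the upstream probe. Whether the probes annotated to NM_010512 differed among themselves was therefore not tested. Over all probes in the diffSplice test, 2.1% were called. Per array, the log2 ratio of the upstream probe to the mean of the overlapping pair amounted to 1.29, 1.32 and 0.83 with the label GapmeR Ntep and to -1.35, -1.07 and -1.25 on the control arrays. These ratios differed by 2.37 between the groups without overlap (exact two-sided permutation p = 0.1, the smallest that 3 against 3 arrays allow). Probes of different sequence have different brightness, so it is the shift of the ratio between groups and not its sign that can be compared, and the ratio shows unequal change rather than a constant amount of any transcript.

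**Figure D2:**
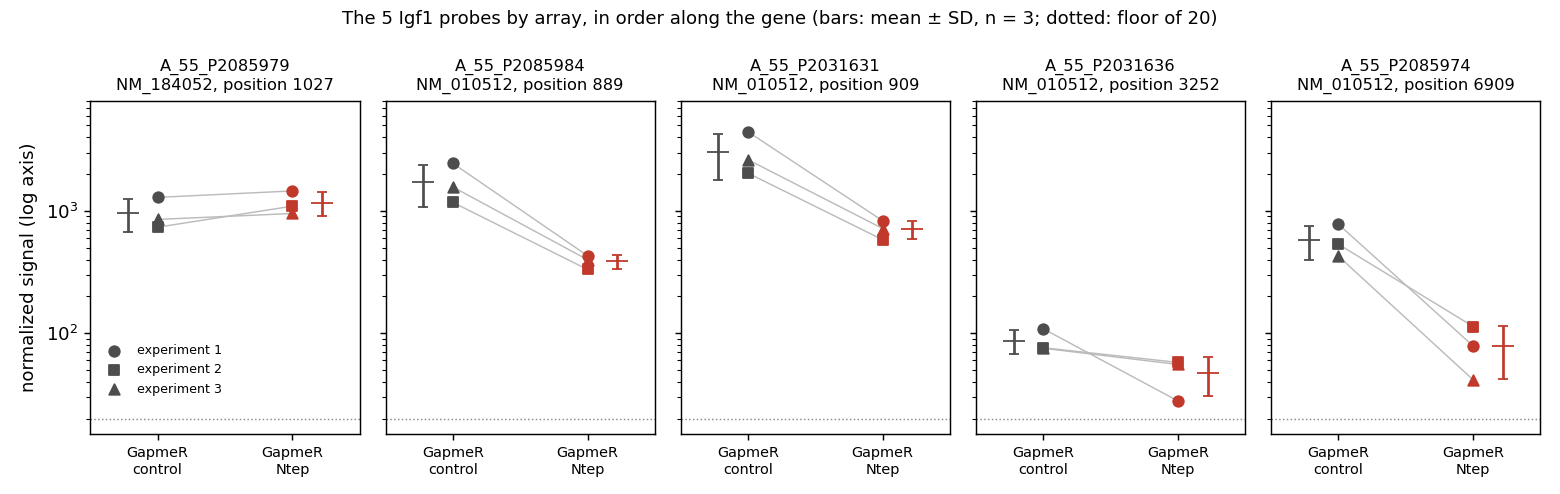
Normalized signal (log axis) of the 5 Igf1 probes on the 6 arrays, ordered along the gene from the upstream probe annotated to NM_184052 to the most downstream one; bars show mean ± SD (n = 3 per group). The 4 probes annotated to NM_010512 are lower on every array labelled GapmeR Ntep than on any control array, whereas the groups overlap for the upstream probe.

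The call for Igf1 did not survive the loss of a single array. When any 1 of them was left out, the log2 difference of the brightest probe stayed between -2.28 and -1.72, but its adjusted p was between 0.0575 and 0.125 and no member was called. Without both arrays of experiment 1, an alternative added later, the difference was -1.84 and Igf1 was called (adjusted p = 0.0499).

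The other ligand, Igf2, is an imprinted gene expressed mainly in fetal tissue. Its probe was at the floor of 20 on all 6 arrays and was not well above background on any of them, and therefore no difference was tested. The probe for Igfbp3, which encodes the main carrier of IGFs in serum, was likewise at the floor on all 6 arrays. The 2 probes of Igfbp2 reached at most 29.7 and were not well above background on any array.

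Igf1r encodes the receptor through which both ligands signal. Signals of 4147, 11335 and 7544 were measured on the arrays labelled GapmeR Ntep and of 14762, 12636 and 14047 on the control arrays. The control arrays were close together and all above the labelled Ntep arrays, which spread widely. The mean was 7675 ± 3596 against 13815 ± 1081 (SD, n = 3 each), and the log2 difference of -0.96 (SE 0.38, 95% CI -1.88 to -0.05) did not pass the adjusted threshold (limma adjusted p = 0.182). The single experiments differed by -1.83, -0.16 and -0.90, the largest of these being experiment 1. Whether these differences follow the signal of the Ntep probe was not tested.

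Igf2r encodes the clearance receptor for IGF2. It gave 17637, 16423 and 13879 against 20424, 17187 and 18297, and the groups overlapped at this bright probe. Its log2 difference was -0.23 (SE 0.18, 95% CI -0.66 to 0.21, limma adjusted p = 0.473). The interval leaves out a fall as deep as that of the called Igf1 probes. The array file locates 11 bases of this probe in the genome (chr17:12875253-12875263, mm9, minus strand).

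Igfbp5 encodes a binding protein that attaches to extracellular matrix, and its signal varied most among the members. Signals were 21.2, 588 and 216 for the label GapmeR Ntep and 236, 1725 and 2124 on the control arrays. Within each experiment the labelled Ntep array was the lower one, by -3.48, -1.55 and -3.30 on the log2 scale, yet the groups overlapped because both arrays of experiment 1 were dim. The probe was well above background on 2 of 3 labelled Ntep arrays. Compared between groups, the log2 difference of -2.78 had an SE of 1.42 (95% CI -6.24 to 0.69, limma adjusted p = 0.285). Leaving out 1 array moved it to between -3.82 and -1.42, the latter without the labelled Ntep array of experiment 1. With the experiments as a replicate block in the fit, the adjusted p was 0.0397, and Igfbp5 joined Igf1 (adjusted p = 0.031) as 2 of 7 tested members called, compared with 16% of all genes in that fit (8.91% lower, 7.13% higher). An unpaired fit with array weights also called Igfbp5 (log2 difference -3.02, limma adjusted p = 0.0282), in a setting that called 10260 of 30990 probes. A stretch of its probe (A_52_P281702, chr1:72904829-72904888, mm9, minus strand, NM_010518) is shown because Igfbp5 was called with the block but not in the main unpaired fit.
Igfbp5 A_52_P281702: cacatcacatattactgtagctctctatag

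Igfbp6 encodes a binding protein that prefers IGF2. Its probe was bright, with 21302, 25142 and 17326 on the arrays labelled GapmeR Ntep and 29390, 29368 and 28471 on the control arrays. All 3 labelled Ntep arrays were below the tightly grouped controls, but the log2 difference of -0.47 (SE 0.19, 95% CI -0.94 to 0.00094) did not pass (limma adjusted p = 0.2). Igfbp7 encodes a secreted protein that binds IGFs with low affinity. It gave 201, 123 and 250 against 225, 266 and 332, with overlapping groups and a log2 difference of -0.56 (SE 0.31, 95% CI -1.32 to 0.20, adjusted p = 0.321).

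Igfbp4 encodes a binding protein that restrains IGF activity until it is cleaved by PAPP-A. It showed 102, 241 and 214 on the arrays labelled GapmeR Ntep and 80.7, 255 and 261 on the control arrays. Here the arrays grouped by experiment rather than by treatment, since both arrays of experiment 1 were the dimmest. The log2 difference was -0.0066 (SE 0.57, limma adjusted p = 0.996 without and 0.983 with the block). Its 95% CI from -1.40 to 1.38 includes changes of more than 2-fold in either direction. That interval comes from the unpaired fit and so carries the spread between experiments. Within experiments 1, 2 and 3, the log2 differences were smaller, at 0.34, -0.079 and -0.28.

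**Figure D3:**
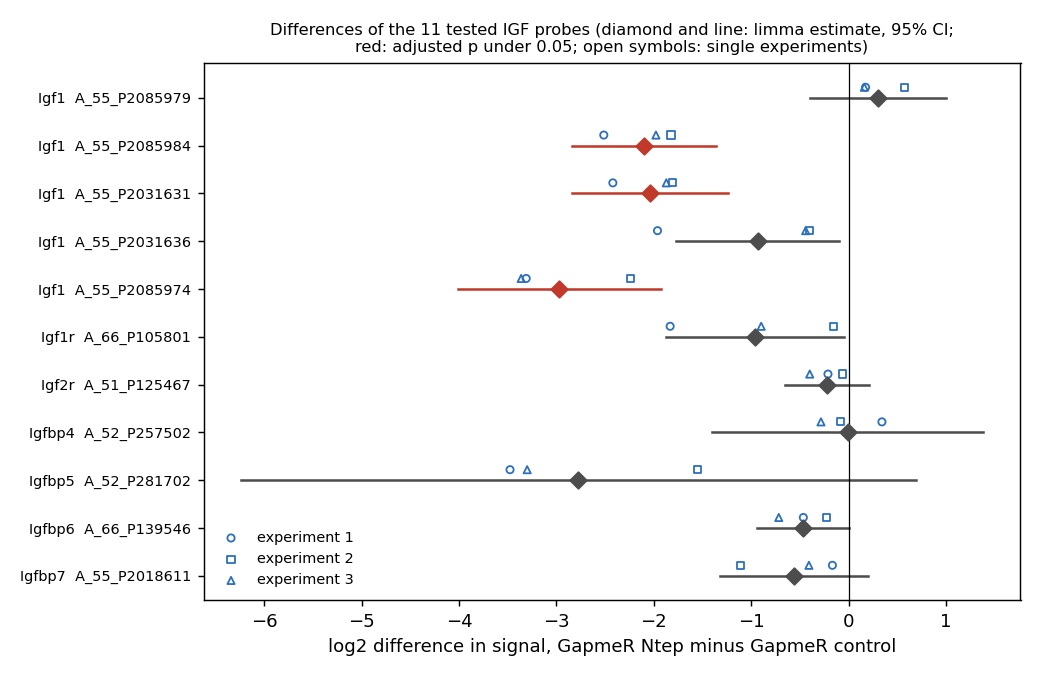
Log2 difference in signal between arrays labelled GapmeR Ntep and GapmeR control for the 11 tested probes of the IGF genes; diamonds and lines are limma estimates with 95% confidence intervals, red where the adjusted p was under 0.05, and open symbols are the single experiments. The 3 called Igf1 probes lie between -2.97 and -2.03, the upstream Igf1 probe at 0.30, and the interval of Igfbp5 reaches from -6.24 to 0.69.

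The brightest Igf1 probe was compared with 14046 other genes that were well above background on at least 3 of the 6 arrays. The genes closest to it, by the root mean square distance of the mean-centred log2 signals over 6 arrays, were Nfkbie (distance 0.145), Erap1 (0.243) and Ifna5 (0.272). Nfkbie encodes an inhibitor of NF-kB, Erap1 an aminopeptidase that trims peptides for MHC class I, and Ifna5 a type I interferon. Their log2 differences were -2.05, -1.80 and -2.05. As all 3 were selected for their likeness to Igf1, these values are a description only.

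Other genes of the pathway were read from a list of 68, of which 59 were tested by their brightest probe. Of these, 26 were higher and 33 lower, with a median of -0.13. The single gene called was Foxo3, 1 of 59 (1.69%), against 6.01% of all genes. Groups did not overlap for 27 of the 59 (10 higher, 17 lower), a share of 45.8% against 36.2% of all genes. With the experiments as a block, 11 of the 59 were called (4 higher, 7 lower), against 16% of all genes.

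Among 24 genes of the PI3K, AKT and mTOR cascade, 16 were lower and 8 higher (median -0.32). Foxo3 encodes a transcription factor restrained by AKT and rose from 600 ± 111 to 1523 ± 377 (SD, n = 3 each; log2 difference 1.33, SE 0.25, limma adjusted p = 0.0419). Its second probe was dim and gave 0.20 (adjusted p = 0.753). The call was lost when any 1 array was left out (adjusted p from 0.0555 to 0.165) and without experiment 1 (0.0698). Fits without 1 array called from 0 to 1403 of all tested probes, against 1642 with all 6 arrays. When experiments were blocked, 4 of the 24 genes were called, against 16% of all genes, Foxo3 and Mtor higher and Pik3r3 and Rps6kb1 lower. Of these, Pik3r3, which encodes a regulatory subunit of PI3K, had the largest log2 difference at -2.10 (adjusted p = 0.157 without and 0.0421 with the block). Mtor, Pik3r3 and Rps6kb1 are named because of that call, after their values had been seen. The second Mtor probe, also well above background on all 6 arrays, gave -0.29 (adjusted p = 0.545). The other Rps6kb1 probes, well above background on the same arrays, gave -0.88 and -0.10. Neither was called with the block (limma adjusted p = 0.0681 and 0.771).

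Of 11 other ligands, receptors and binding proteins, 6 were tested and none was called, with the largest differences at Insr, Esm1 and Lrp1. Insr encodes the insulin receptor, which forms hybrids with IGF1R. Its brightest probe had a mean of 348 ± 48.3 on the arrays labelled GapmeR Ntep and 853 ± 301 on the control arrays (SD, n = 3 each; log2 difference -1.25, limma adjusted p = 0.0621 without and 0.0396 with the block), and its other probes gave -1.21 and -1.70. Lrp1 encodes a large endocytic receptor that also binds IGFBP3. Its probes went in opposite directions, with -1.21 at the brighter one (adjusted p = 0.0509 without and 0.0408 with the block) and 3.82 at the other (adjusted p = 0.0224). Esm1, which encodes a secreted proteoglycan with an IGFBP domain, had a difference of 1.24 (adjusted p = 0.177) and was at the floor on all control arrays.

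None of the 5 genes of the growth hormone axis, which drives Igf1 transcription in liver, was called without the block. Their median was -0.59, with 4 lower and 1 higher. Ghr, the growth hormone receptor gene, had a log2 difference of -1.14 (limma adjusted p = 0.332 without and 0.0442 with the block), Jak2, its kinase, of -0.79 (0.0721 without and 0.0482 with the block), and Stat5a, the transcription factor downstream of both, of -0.59 (0.123 without and 0.0906 with the block).

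The adaptors and phosphatases next to the receptor showed no call among 10 tested genes, with 5 higher and 5 lower. The largest differences were those of Grb14, which encodes an inhibitory adaptor (-0.79, limma adjusted p = 0.222), Ptpn1, which encodes the phosphatase PTP1B (0.77, adjusted p = 0.0544 without and 0.0415 with the block), and Irs4, an insulin receptor substrate gene (0.54, adjusted p = 0.159). Among proteases of the binding proteins and their inhibitors, 6 of 9 were tested, 5 higher and 1 lower. Adamts1, a metalloproteinase gene, had a log2 difference of 0.78 (adjusted p = 0.143). Pappa2, which encodes a pappalysin, was well above background on 1 of 6 arrays and had 1.54 (adjusted p = 0.24). Adam12, another metalloproteinase gene, was at the floor on all arrays but 1 control array (520), which alone gave its value of -1.57 (adjusted p = 0.484). Its second probe, dimmer on average but well above background on 3 arrays, went the other way at 0.54 (adjusted p = 0.324).

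RNA-binding proteins and imprinted RNAs linked to IGF transcripts comprised 8 genes, 3 higher and 5 lower, without a call. Igf2bp1, which encodes a protein that binds Igf2 mRNA, had a mean of 34886 ± 6523 against 15734 ± 7188 (SD, n = 3 each; log2 difference 1.22, limma adjusted p = 0.0938 without and 0.0398 with the block). H19, the imprinted neighbour of Igf2, had -1.89 with an SE of 1.62 (adjusted p = 0.497). Airn, the antisense RNA at Igf2r, had -1.09 at its brightest probe (adjusted p = 0.218 without and 0.0403 with the block). Its other tested probes gave -0.71, -0.79 and -3.15, and the last of these, well above background on 3 arrays, was called (adjusted p = 0.0243).

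**Figure D4:**
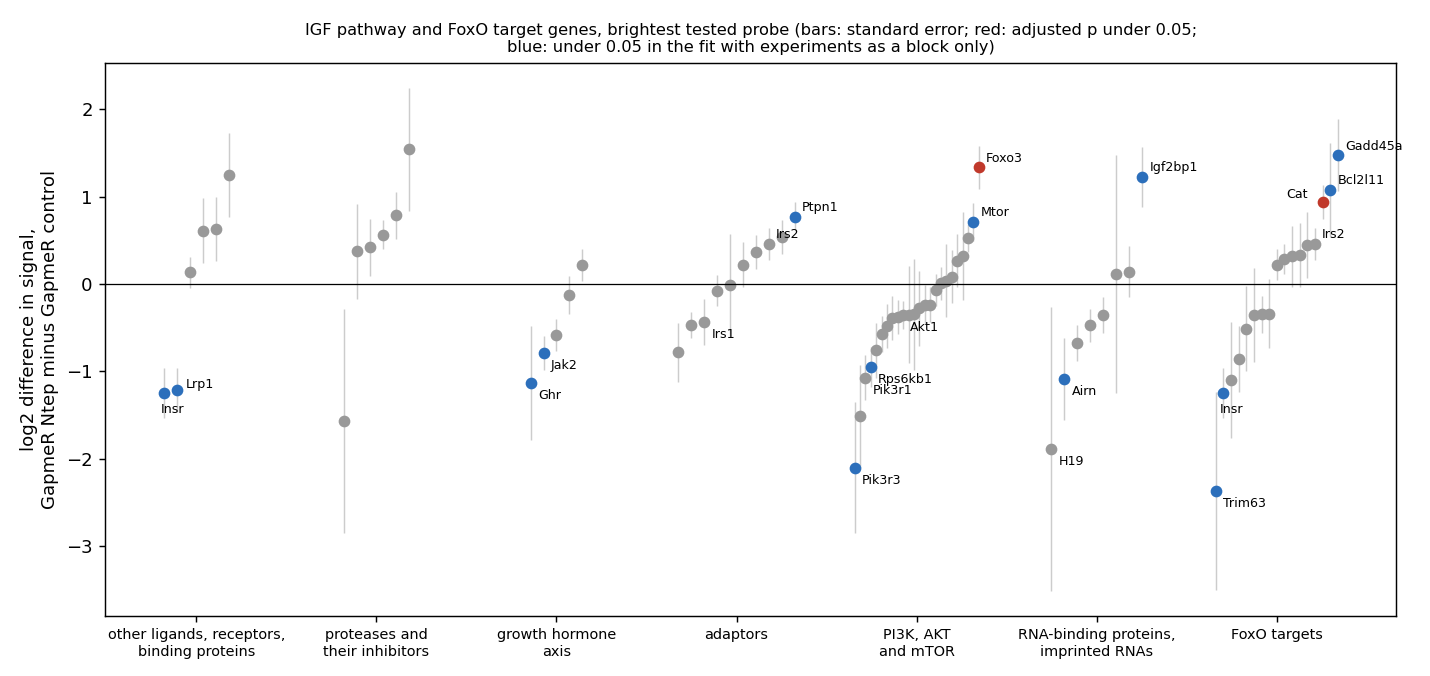
Log2 difference in signal between arrays labelled GapmeR Ntep and GapmeR control for 59 pathway genes and 17 FoxO target genes by brightest tested probe, grouped by role; bars are standard errors, red points had an adjusted p under 0.05 and blue points only in the fit with experiments as a block. Foxo3 at 1.33 and Cat at 0.94 are the red points.

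FoxO target genes, which are transcribed when AKT activity is low, were read from a separate list of 18 genes, 17 of them tested. They split into 9 higher and 8 lower (median 0.22). Cat, which encodes catalase, was the single gene called, 1 of 17 (5.88%) against 6.01% of all genes, and rose from 7170 ± 521 to 13824 ± 2392 (SD, n = 3 each; log2 difference 0.94, SE 0.19, limma adjusted p = 0.0492, and 0.0511 with the block). Its second probe, also well above background on all 6 arrays, gave 0.64 and was not called (adjusted p = 0.115). The call for Cat was lost when any 1 array was left out (adjusted p from 0.0598 to 0.184), in fits that called fewer probes of any gene. Blocking called 4 others of the 17, named for that reason, against 16% of all genes in that fit: Gadd45a (1.47) and Bcl2l11 (1.08), genes of growth arrest and apoptosis, higher, and Insr and Trim63 (-2.37), a muscle ubiquitin ligase gene, lower. Insr and Irs2 are members of both lists.

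Markers of the cells were read on the same arrays. Of 10 fibroblast markers, 9 were well above background on all 6 arrays, and their summed signal was 555720 to 737410 on the arrays labelled GapmeR Ntep and 808200 to 891260 on the control arrays. Of 8 macrophage markers, 4 were well above background on all arrays (Csf1r, Cd68, Itgam and Cd14), whereas Adgre1, Ptprc and Fcgr1 were not on any, and the summed signal was 42456 to 75236 against 19934 to 27404. Adipocyte markers (4, of which Fabp4 was above background on all arrays and Lep on none) summed to 1555 to 6607 against 609 to 875, and myoblast markers (4, with Myod1 and Myf5 on none) to 146 to 334 against 333 to 848. Endothelial markers (5, with 3 above background on no array) summed to 748 to 826 against 579 to 655, and epithelial markers (5, with 3 above background on all arrays) to 3307 to 7577 against 2974 to 3925, with overlap. Most of the adipocyte sum was Fabp4, whereas Plin1 was at the floor on all arrays but 1 control array. The part of these shifts in the difference of Igf1 was not tested.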

How the data were processed

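Total RNA from both GapmeR groups of 3T3 cells (3 arrays each) was labelled with a single dye and hybridised to Agilent mouse arrays. The authors scanned the arrays and extracted background-corrected intensity values with Agilent Feature Extraction 10.7.3.1 per the labels. Deposited besides is the authors' table of quantile-normalized intensity values with a floor of 20, which served as an alternative. Saturation was absent and the number of arrays limits precision.

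From the scanner files, control spots were removed, processed signals were averaged per probe, quantile-normalized, floored at 20 and converted to log2. Probes with a group mean of at least 50 were tested with limma 3.58.1 (R 4.3.3; unpaired, two-sided, Benjamini-Hochberg over 30990 probes, adjusted p under 0.05 as the threshold). A gene was represented by its brightest probe. The unpaired fit and diffSplice were tested on simulated data with independent noise. These data held no experiment effects, and the fit with experiments as a block was not tested on them.

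Experiment numbers follow the study's supplementary file. Deviations from group means correlated at 0.466, 0.3 and 0.254 within experiments 1, 2 and 3 and at -0.327 to 0.126 otherwise, so a fit with experiments as a block was run beside the unpaired one.

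Named were all members with every probe, genes of the pathway and FoxO lists that were called or, in a group without a call, up to 3 with the largest difference, and the 3 genes nearest to each called member; others are said to be chosen later. The members and lists were chosen with earlier results of these data known. Alternatives covered scaling, background correction, the authors' table, the floor, filters, outlier spots, variance models, array weights, the methods' t-test and leaving out arrays.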

Additional observations from a re-analysis of the deposited data

How the results depend on the processing

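The log2 difference of the brightest Igf1 probe was negative under all 18 alternatives, between -2.28 and -1.72, and passed the adjusted threshold under 10 of them, with adjusted p from 0.00422 to 0.125. It was lost without a filter on low values (0.0884), with the methods' t-test after Benjamini-Hochberg adjustment (0.0865) and when any 1 array was left out. These settings also called fewer probes of any gene than the 1642 of the unpaired fit. They called 564 without a filter, 285 with the t-test and 0 to 1403 when 1 array was left out. The upstream Igf1 probe stayed positive, from 0.13 to 0.54, and was never called. Igf1r, Igf2r, Igfbp5, Igfbp6 and Igfbp7 stayed lower under every alternative that gave them a value. Igfbp4 turned positive with scaling to the 75th percentile (0.15, a setting that moved the median of all tested probes from 0.0621 to 0.222) and without GapmeR Ntep replicate 1 (0.38), control replicate 2 (0.26) or control replicate 3 (0.28), within a range of -0.565 to 0.377 over the 6 arrays left out in turn. The Ntep probe ranged from -1.06 to 0.13 when 1 array was left out, being positive without GapmeR Ntep replicate 2.

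The number of called members, 1 in the unpaired fit, was 0 without a filter and with the methods' t-test. It was 2 with experiments as a replicate block and 0 for each of the 6 arrays left out. Array weights called 4 members, Igf1, Igf1r, Igfbp5 and Igfbp6, all lower. The number of called pathway genes, 1 as reported, was 5 with normexp, 7 with probes well above background on all arrays, 2 without outlier spots, 11 with the replicate block, 7 with a mean-variance trend, 26 with array weights, 3 when any probe of a gene counted, 4 by the fold and p criterion, and 0 to 1 when an array was left out. Foxo3 was called under 9 of 18 alternatives. The single pathway gene called was instead Shc1 without a filter and with the methods' t-test, Lrp1 without GapmeR Ntep replicate 2, and Igf2bp1 without experiment 1. For FoxO targets, 1 as reported, it was 0 with scaling to the 75th percentile, a floor of 5, no filter, the methods' t-test or without experiment 1 (an alternative chosen after seeing the data), 2 with probes above background on all arrays or a trend, 4 with the replicate block, 7 with array weights, and 0 to 1 when an array was left out (Gadd45a without GapmeR Ntep replicate 2); Cat was called under 6 of 18 alternatives. At the methods' own criterion, the t-test called 1 of 7 members and 792 of 15242 genes (5.2%). The cause of these shifts was not tested. With array weights, 10260 of 30990 probes were called, against 1642 in the unpaired fit. Signals near the floor limit Igf2, Igfbp2 and Igfbp3, for which no difference could be tested.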
